A study of Mus musculus with 12 samples.

Results

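The comparison set a heart from embryonic day 14 (E14) against hearts from adult mice, all of wildtype genotype and of the FVB strain. It used 3 of the 12 arrays of a mouse heart series: the 1 array labelled as embryonic heart of day 14, and the 2 arrays labelled as adult heart. Total RNA from heart tissue was amplified, labelled with biotin and hybridised to Illumina bead arrays, which carry 45281 probes. The rest of the series was made to study a heart model of myotonic dystrophy. Of it only the 3 adult hearts labelled as untreated MCM controls, which carry a tamoxifen-activated recombinase in heart muscle, served here as another adult set. The labels used here state neither the age of the wildtype adults nor the sex of the animals, and they do not say whether the E14 RNA came from 1 embryo or a pool or whether the atria were included. Nor do they say whether the 2 adult arrays came from separate animals, so the spread between those 2 may be technical.

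By midgestation the chambers of the mouse heart beat and pump, and its muscle cells still divide. After birth these cells largely stop dividing and grow by enlargement. Their contractile proteins switch from fetal to adult isoforms, and their main fuel shifts from glucose and lactate to fatty acids burned in mitochondria. The tubules and calcium stores that couple the electrical signal to contraction are built mostly after birth. The embryonic heart also holds cushion tissue that forms the valves, an active outer layer (the epicardium), and blood in which some red cells carry embryonic globins.

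Each value below is a normalized log2 signal, or the difference between the E14 signal and the mean of the adult signals on that scale. A gene was read through its brightest kept probe. It was called higher or lower at E14 when that probe lay at least 2-fold above or below each of the 2 adult arrays. The 3 arrays alone allow no test, since E14 has no replicate, and a call is a statement of size. A test that takes the spread from all 12 arrays is given as an alternative. Where a probe was not well above background in one group, its fold is a lower bound against the detection floor of those arrays. The same "at least" marks probes near the top of the signal range.

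Heart muscle genes were bright on all 3 arrays. Actc1, cardiac actin, had log2 signals of 15.57 in the E14 heart, against 15.81 and 15.84 in the adult hearts. Tnnc1, cardiac troponin C, had 15.60 at E14, against 16.02 on both adult arrays. Actn2, the Z-disc actinin, had 15.17 at E14, against 15.62 and 15.67 in adults. On the E14 array 16774 probes were detected, against 14433 and 15002 on the adult arrays. The E14 count was the highest of the 12 arrays, whose lowest count was 14202. The median raw signal was 158.7 on the E14 array, against 129.7 and 122.7 on the adult arrays. A median of 40 beads stood behind each E14 probe, and their standard error was 0.071 on the log2 scale at the median probe.

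Of 9857 measured genes, 1280 (13%) were higher at E14 and 1422 (14.4%) were lower, 2702 (27.4%) together. The 2 adult arrays differed by 2-fold or more for 17 genes (0.172%). Their signals correlated across genes at 0.994, while the E14 array correlated with each of them at 0.778. Genes are not independent replicates, and the arrays were normalized together. The difference had a median of -0.02 over all genes, with quartiles at -0.62 and 0.60 and a 5th to 95th percentile range of -2.04 to 1.82. Differences of 16-fold or more were reached by 62 genes in the higher direction and 64 in the lower. The split of calls depended on scaling: with each array scaled to its 75th percentile, 1856 genes were higher and 1067 lower, the share of higher genes among calls was 63.5% in place of 47.4%, and the median of all genes stood at 0.27. A limma fit over all 12 arrays, which assumed that the lone E14 array varies like the others, put 3103 genes (31.5%) higher and 2692 (27.3%) lower at an adjusted p below 0.05. It passed 2675 of the 2702 genes called by size.

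**Figure D1:**
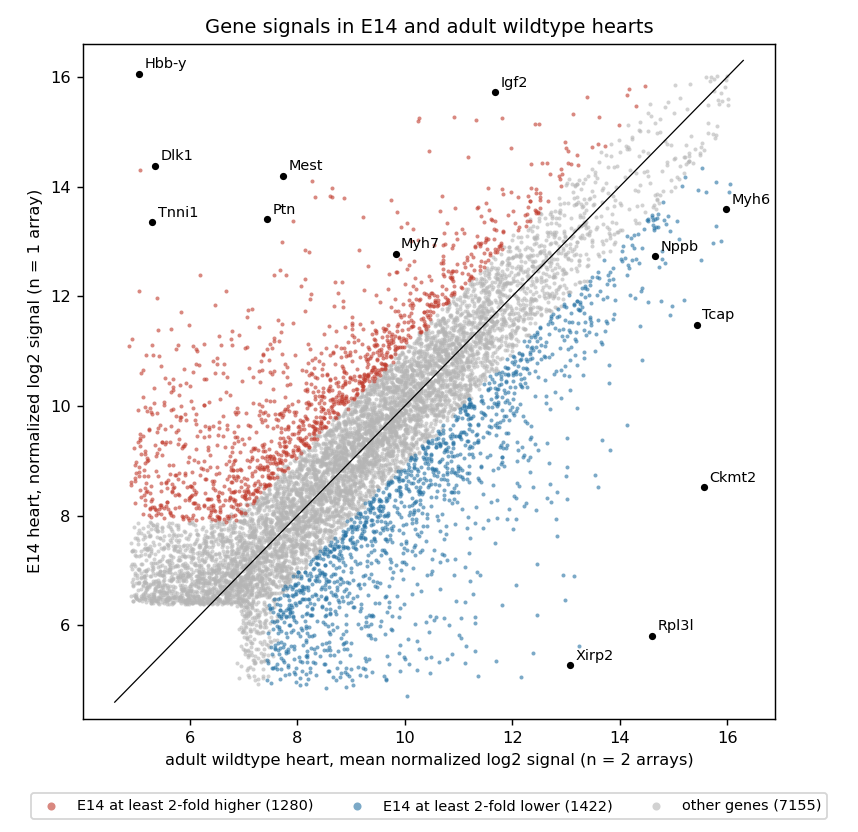
Normalized log2 signal of each of the 9857 measured genes in the E14 heart (vertical axis, 1 array) against the mean of the 2 adult wildtype hearts (horizontal axis), before any floor is applied. Red points are the 1280 genes called higher at E14, blue points the 1422 called lower, and the line marks equal signal; Hbb-y, Dlk1 and Tnni1 stand at the upper left, Rpl3l, Xirp2 and Ckmt2 at the lower right.

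Detection was uneven. Of the measured genes 7751 were detected on all 3 arrays. By their brightest probe another 1316 were dark in both adults and measured only through the E14 array, and 324 of these were called higher. Conversely 457 were dark at E14, of which 287 were called lower. The rest were detected at E14 and on 1 adult array. Genes dark in one group could be called in 1 direction only, so list counts below give how many members they make up where these were more than a few.

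Genes with several probes allowed a check within the E14 array. Of the 1280 higher genes 526 had at least 2 kept probes. For 231 of them (43.9%) every probe was at least 2-fold higher, for 190 the probes shared the sign, for 101 the signs were mixed, and for 4 another probe was at least 2-fold lower. Of the 1422 lower genes 540 had several kept probes. For 365 of them (67.6%) every probe was at least 2-fold lower, and 148, 21 and 6 fell in the other classes in the same order. Over the 3647 genes with 2 or more kept probes, the differences of the brightest and the second brightest correlated at 0.84 across genes, which share the same arrays, and their median gap was 0.30. Of the 1066 called genes among them 986 had the same sign on both probes. A dim probe dark in adults takes a minus sign where its E14 signal lies under the adult floor. Some of the mixed signs among higher genes are of this kind.

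**Figure D2:**
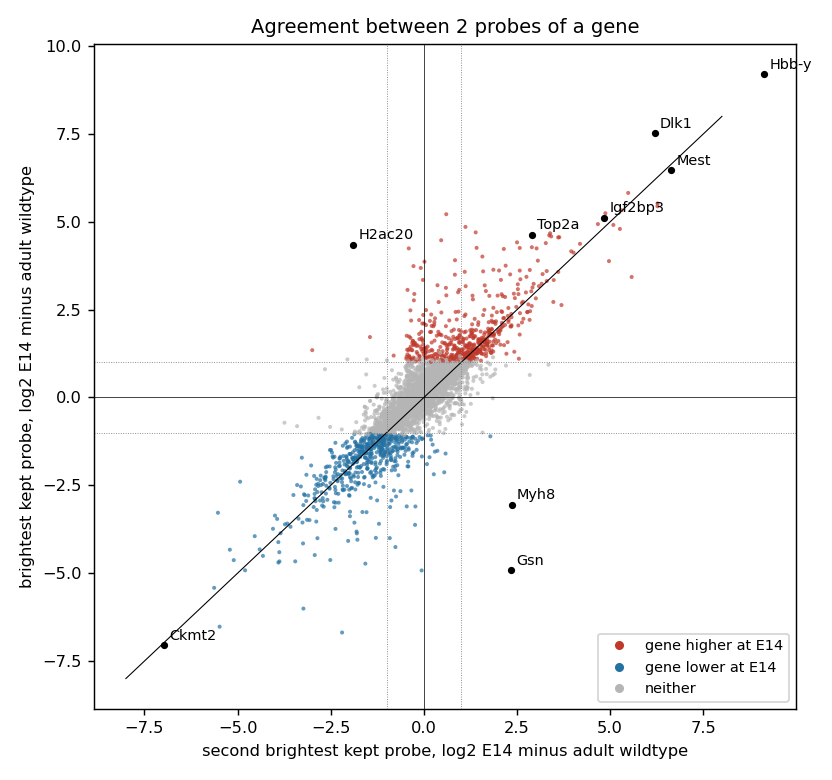
Log2 difference, E14 minus adult wildtype mean, of the brightest kept probe (vertical) against the second brightest (horizontal) for 3647 genes. Points near the diagonal are genes whose probes agree, such as Hbb-y, Mest, Dlk1 and Ckmt2; Gsn, Myh8 and H2ac20 lie in the quadrants where 2 probes of a gene go opposite ways.

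The contractile genes divided by isoform, with no common direction. Of 25 sarcomere genes listed, 23 were measured, of which 8 were higher, 8 lower and 7 uncalled, and their median was -0.15, which turned positive under cyclic loess. Myh7 encodes the slow beta myosin heavy chain that powers the fetal mouse ventricle. Its log2 signal was 12.77 in the E14 heart, against 9.86 and 9.80 in the adult hearts, a 7.69-fold difference, with all 3 of its probes past 2-fold (limma adjusted p = 8.33e-05). Myh6 encodes the fast alpha chain of the adult mouse heart and had 13.59 at E14, against 15.96 and 16.01 in adults. It was at least 5.27-fold lower, and the adult signals were near the top of the range. Its second probe was further apart, with a difference of -4.93.

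Myh6 and Myh7 lie next to each other and each holds a microRNA gene, Mir208a within Myh6 and Mir208b within Myh7. The 3p strands of these microRNAs are shown because their host genes went opposite ways here. The sequences are RefSeq's for GRCm38.p6, minus strand, at chr14:54949072-54949093 for miR-208a-3p and at chr14:54975710-54975731 for miR-208b-3p. Capitals mark the seed, bases 2 to 8.
mmu-miR-208a-3p: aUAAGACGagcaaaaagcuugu
mmu-miR-208b-3p: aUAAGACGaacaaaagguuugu
The seeds are identical, and 19 of 22 positions match over the whole strand. The microRNAs themselves were not analysed here.

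The troponins differed by isoform. Tnni1, the slow skeletal troponin I used by the fetal heart, had a log2 signal of 13.35 at E14, against 5.21 and 5.39 in adults, where it was dark, so it was at least 90.5-fold higher. Tnni3, the cardiac troponin I of the adult heart, had 11.51 at E14, against 13.14 and 13.30 in adults, 3.28-fold lower. Tnnt1, the slow skeletal troponin T, had 13.34 at E14, against 10.11 and 9.97 in adults, 9.84-fold higher, while its difference from the MCM hearts was 1.49. The smooth muscle genes Acta2 (smooth muscle actin, at least 4.73-fold) and Myl9 (a regulatory light chain, 10.1-fold) were also higher, with differences of 1.38 and 2.67 from the MCM hearts. Acta2 is transiently made by embryonic heart muscle, and markers of smooth muscle cells are given further on.

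Acta1, skeletal actin, is often counted among fetal heart genes. It had 11.92 at E14, against 14.59 and 14.94 in adults, 7.18-fold lower, and 14.62, 14.32 and 15.17 in the MCM hearts. The ventricular light chains Myl2 and Myl3 were near the top of the signal range in both groups and gave no fold. The atrial chain Myl4 was near the top at E14 and was not called at 0.94. Lmod3, an actin filament nucleator, and Mylk3, the cardiac myosin light chain kinase, were 4.50-fold and 3.18-fold lower.

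Tissue isoform pairs were compared by the direction of each member rather than by level, since different probes cannot be set against each other. Both members were measured in 12 of 16 pairs. In 7 pairs the embryonic or widely expressed member was higher and the adult heart or muscle member lower. In 2 more pairs only the adult member was lower, and in 1 only the wide member was higher. The wide member differed more positively than its partner in 11 of the 12 pairs, with Acta1 and Actc1 as the exception. Rpl3l, a ribosomal protein made in heart and skeletal muscle, had 5.81 at E14, against 14.54 and 14.67 in adults, at least 298-fold lower. Its ubiquitous partner Rpl3 had 15.13 at E14, against 14.05 and 13.93 in adults, 2.20-fold higher. Slc2a1, the glucose transporter of fetal and many other tissues, was 8.32-fold higher, while Slc2a4, the insulin-responsive transporter of muscle and fat, was 11.4-fold lower. The creatine kinases Ckb and Ckm were 2.66-fold higher and 6.26-fold lower. The cytochrome oxidase subunits Cox6a1 and Cox6a2 were 2.50-fold higher and at least 4.40-fold lower. Ckmt2, the creatine kinase of muscle mitochondria, had 8.52 at E14, against 15.54 and 15.60 in adults, and was at least 133-fold lower on the brighter of 2 probes that gave -7.05 and -6.97.

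**Figure D3:**
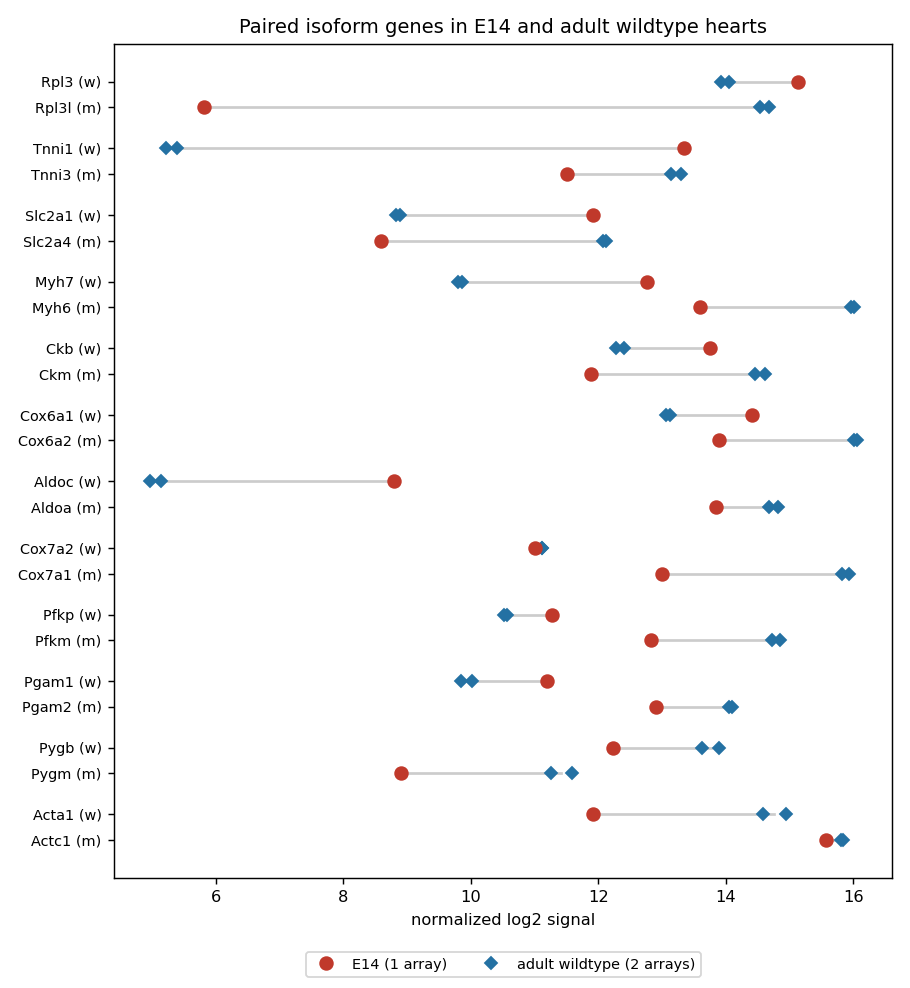
Normalized log2 signal of the 12 isoform pairs in the E14 heart (circles, 1 array) and the adult wildtype hearts (diamonds, 2 arrays), with the embryonic or widely expressed member (w) above the adult heart or muscle member (m) and pairs ordered by the gap between their differences. Circles lie right of the diamonds for most (w) members and left of them for every (m) member; Acta1 at the bottom is the exception named in the text.

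Structural genes of the muscle cell outside the filaments were lower or uncalled. Of 31 listed genes of the Z-disc, M-band and membrane scaffold 24 were measured, 12 of them lower and none higher. Their median was -1.05, and 3 were dark at E14. Xirp2, an actin-binding protein of the intercalated disc, had 5.27 at E14, where it was dark, against 12.89 and 13.26 in adults, at least 103-fold lower. The MCM hearts gave 9.53, 9.50 and 9.89 for Xirp2, so the adult sets themselves differed for this gene. Tcap, which caps titin at the Z-disc, was at least 15.4-fold lower on the brighter of 2 probes, and the M-band protein Myom2 was 28.1-fold lower. Fhl2, a LIM protein that binds titin, was 9.72-fold lower, and Sgca, alpha-sarcoglycan, 10.3-fold lower with all 3 probes past 2-fold. Titin itself (Ttn), read by 11 probes, had differences between -2.93 and 0.10, with 5 probes at least 2-fold lower and a brightest probe at -0.81 that was not called.

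Calcium handling genes were more often lower than higher. Of 29 listed, 25 were measured, 11 lower and 2 higher, with a median of -0.93. Hrc, the histidine-rich calcium-binding protein of the sarcoplasmic reticulum, had 10.85 at E14, against 14.35 and 14.48 in adults, 11.9-fold lower. Ryr2, the calcium release channel, was 4.85-fold lower, Pln, the inhibitor of the calcium pump, 4.50-fold lower, and S100a1, a calcium sensor that binds both, 8.95-fold lower. Slc8a1, the sodium-calcium exchanger, had 13.18 at E14, against 13.30 and 13.01 in adults, and lay within the adult values. The genes called higher were Cacna1h, a T-type calcium channel of the embryonic heart, which was at least 15.7-fold higher, and Calr, calreticulin, a calcium-binding chaperone that the embryonic heart needs, which was 2.15-fold higher. Cacna1h was detected in the MCM hearts, at 8.66, 9.03 and 7.49, and its difference from them was 2.43.

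Ion channels and gap junctions were lower in 15 and higher in 3 of 23 measured genes of 35 listed, with a median of -1.45, and 8 of the 23 were dark at E14. Kcnip2, the subunit that sets the transient outward potassium current, was at least 12.1-fold lower with all 3 probes past 2-fold, and its partner channel Kcnd2 was 6.45-fold lower. Scn4b, a sodium channel subunit, had 5.33 at E14, against 10.49 and 10.80 in adults, at least 19.1-fold lower by its brighter probe, while its second probe differed by -0.76. Kcnj2, the inward rectifier that holds the resting potential, was at least 2.86-fold lower. The genes called higher were Kcne1, a subunit of the slow delayed rectifier, at least 14.6-fold by 1 of 2 probes (a difference of 2.08 from the MCM hearts), Gja5 (connexin of the atria and conduction system, 5.41-fold) and Gjc1 (the connexin of the early heart, 2.54-fold). Gja1, the main ventricular connexin, was not called at -0.48.

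Of the energy metabolism lists, fatty acid oxidation had the lowest median. All 38 measured genes of fatty acid oxidation, of 43 listed, had a negative difference and 32 were called lower, with a median of -1.99, and 4 were dark at E14. Pdk4, the kinase that turns off glucose oxidation, had 9.37 at E14, against 13.78 and 13.55 in adults, 19.6-fold lower, with a difference of -2.99 from the MCM hearts. Ppara, a nuclear receptor that switches on fat-burning enzymes, was dark at E14 and at least 8.01-fold lower. Acadvl, which starts the oxidation of long-chain acids, was 7.53-fold lower, Ech1, an auxiliary enzyme of the pathway, 9.56-fold lower, and Bdh1, which handles ketone bodies, 18.0-fold lower. The coactivator Ppargc1a, which drives mitochondrial growth, was not called at -0.54.

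Respiratory chain and TCA cycle genes were nearly all on the negative side, with fewer calls. Of 58 genes listed 52 were measured, 51 of them with a negative difference, 23 called lower and 1 higher, with a median of -0.98. Ogdh, a subunit of the oxoglutarate dehydrogenase complex, was 4.74-fold lower, Sdhb of complex II 3.03-fold lower on the brightest of 3 probes that all passed, and Ndufb9 of complex I 3.50-fold lower. Atp5b and Atp5o of the ATP synthase were near the top of the signal range and uncalled. The gene called higher, Idh3b, had a second probe at -0.25 in the other direction.

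Glycolysis had no common direction: of 30 listed 24 were measured, 5 higher and 7 lower, with a median of 0.14 that was negative without a filter on detection. Its lower genes included the muscle isoforms Eno3 (enolase, 4.18-fold) and Pfkm (phosphofructokinase, 3.90-fold with all 3 probes past 2-fold). Slc2a3, a high-affinity glucose transporter, was 4.46-fold higher, and Eno2, the enolase of neurons and fetal tissues, 4.14-fold higher.

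Lipid storage genes stood among the largest differences. Plin5 and Plin4, which coat lipid droplets, were dark at E14 and at least 64.3-fold and 54.9-fold lower. Dgat2, which makes triglyceride, had 7.62 at E14, against 12.88 and 12.80 in adults, 37.3-fold lower. Lpin1, which makes its precursor diacylglycerol, was 22.8-fold lower on the brighter of 2 probes, and Perm1, a regulator of muscle mitochondria, was 33.5-fold lower. Adipocyte markers moved beside these. All 6 measured of 12 listed were lower, 3 of them dark at E14, with a log2 summed signal of 8.78 at E14, against 13.04 and 13.05 in adults. Plin4, which is on this list too, made up most of the adult sums, with 12.15 and 12.17. The defining marker Adipoq had 7.92 and 7.97 in adults and was at least 2.95-fold lower. The adult sets were not alike here. The median of the adipocyte list was -2.95 against wildtype adults and -1.48 against the MCM hearts. Adipoq was not detected in the MCM hearts, with 6.46, 6.62 and 6.03, and Car3, an adipocyte carbonic anhydrase, differed from them by -0.43 in place of -2.58. The part of fat cells in these results was not tested.

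Genes of cell division were mostly higher. Of 53 listed genes of the cell cycle and mitosis 43 were measured, 33 of them higher and none lower, with a median of 2.50. In 30 of the 43 the adult arrays were dark. Of 38 listed genes of DNA replication 34 were measured, 32 higher and none lower, with a median of 2.67 and 13 dark in adults. The log2 summed signal of the replication list was 15.86 at E14, against 12.93 and 12.92 in adults. In bulk samples more cells of a type and more RNA per cell cannot be told apart, here and in the results that follow.

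Cdk1, the kinase that starts mitosis, had 11.83 at E14, against 6.55 and 6.39 in adults, where it was dark, at least 31.5-fold higher. Birc5, survivin, had 12.10 at E14, against 6.74 and 6.59 in adults, at least 37.9-fold higher with all 3 probes past 2-fold. Prc1, which bundles the microtubules of the dividing cell, was 38.6-fold higher and detected in all hearts. Anln, anillin of the cleavage furrow, was at least 28.9-fold higher by its brighter probe, and its second probe gave 1.12. Top2a, which untangles replicated DNA, was at least 24.7-fold higher by its brightest probe. Of its 3 probes 1 had 6.44 at E14, against 4.92 and 5.03 in adults, where it was dark. Its difference of -0.41 is against the adult floor. Uhrf1, which carries DNA methylation through replication, was 28.5-fold higher, and the helicase subunits Mcm6 and Mcm5 were 17.4-fold and 13.9-fold higher, with 1 of 3 Mcm6 probes at 0.13. Some members were at the floor: Ccna2, Pttg1 and Ttk had E14 signals of 6.78, 6.75 and 6.52 and gave no fold.

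Against the MCM hearts the medians were 2.52 for the cell cycle list and 2.66 for the replication list, with the same E14 array. Some members had lower signals in MCM hearts than in wildtype adults. Prc1 had 12.99 at E14, against 7.80 and 7.64 in wildtype adults and 6.58, 6.67 and 6.87 in MCM hearts. Uhrf1 had 12.40 at E14, against 7.58 and 7.55 in wildtype adults and 6.88, 6.92 and 6.94 in MCM hearts.

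Promoters of these genes are shown because the members stood together and because E2F factors are known to drive genes of the start of S phase. The letters TTTCGCGC and TTTGGCGC, which are common forms of the E2F site and can overlap on opposite strands, were searched on both strands of RefSeq promoters of GRCm38.p6, 250 bases before to 50 after each start. They occurred in 9 of 36 promoters of 29 measured replication genes (25%) and in 2 of 37 promoters of 33 measured cell cycle genes (5.41%). Of the promoters of all measured genes 1.62% held them, and of all 32851 promoters listed by RefSeq there 0.813%. Each line is a stretch of 60 bases around the match, 5′ to 3′ on the gene's strand, with the matching letters in capitals.
Cdk1, chr10:69353008-69353067, minus strand: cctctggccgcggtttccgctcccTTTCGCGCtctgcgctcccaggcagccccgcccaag
Uhrf1, chr17:56304104-56304163, plus strand: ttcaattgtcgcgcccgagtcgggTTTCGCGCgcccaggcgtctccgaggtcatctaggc
Mcm6, chr1:128359780-128359839, minus strand: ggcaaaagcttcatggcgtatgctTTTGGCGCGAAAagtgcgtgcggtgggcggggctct
Mcm5, chr8:75109332-75109391, plus strand: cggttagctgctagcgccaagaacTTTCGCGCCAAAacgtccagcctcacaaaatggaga
The matches begin 131, 185, 110 and 153 bases before the start in the order shown, and in Mcm6 and Mcm5 there are 2 overlapping matches on opposite strands. A match of letters is a description of the promoter and not a measured site. For the lower metabolic lists the letters TNAAGGTCA, a form of the site of ERR receptors that drive mitochondrial genes, were searched in the same way. They occurred in 0 of 40 promoters of fatty acid oxidation genes and in 1 of 51 promoters of respiratory chain and TCA cycle genes (1.96%), beside 0.691% of the promoters of all measured genes and 1.28% of all promoters.

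Inhibitors of the cell cycle were mixed. Of 15 listed, 13 were measured, 4 higher and 1 lower, with a median of 0.64. Cdkn1c, an imprinted inhibitor that restrains fetal growth, had 14.64 at E14, against 10.44 and 10.45 in adults, 18.3-fold higher. Cdkn2c and Cdkn2d, inhibitors of the kinases of the early cycle, were 2.30-fold and 2.74-fold higher, and Rbl1, a relative of the retinoblastoma protein, at least 5.14-fold higher by 1 of 2 probes. Gadd45a, which responds to DNA damage, was 2.75-fold lower. Rb1 itself was not called at -1.07, because 1 adult array lay less than 2-fold away.

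Fetal growth genes held some of the largest signals. Of 34 imprinted and fetal growth genes 19 were measured, 12 higher and none lower, with a median of 2.02, and 7 were dark in adults. Without a filter on detection, where genes dark in both groups enter at unequal floors, the median of that list was -0.19. That of all genes was then -0.47. Dlk1, a membrane protein related to Notch ligands and made by fetal tissues, had 14.38 at E14, against 5.41 and 5.31 in adults, at least 185-fold higher, and its other probe gave 6.19. Mest, a paternally expressed growth gene, had 14.20 at E14, against 7.81 and 7.65 in adults, 88.5-fold higher, with 3 probes between 5.58 and 6.64. Igf2, the fetal growth factor, had 15.72 at E14, against 11.56 and 11.79 in adults, at least 16.5-fold higher, and its E14 signal was near the top of the range. Peg3, a paternally expressed zinc finger gene, was 24.0-fold higher, and Gpc3, which restrains growth factors at the cell surface, was 43.5-fold higher on the brighter of 2 probes that both passed.

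RNA-binding and chromatin proteins of the fetus had no lower member either. Of 28 listed, 18 were measured, 13 higher and none lower, with a median of 2.33, and 4 were dark in adults. Igf2bp3 and Igf2bp1, which bind fetal mRNAs including that of Igf2, were dark in adults and at least 34.7-fold and 19-fold higher. Of the 4 probes of Igf2bp3 3 passed, while all 4 of Igf2bp1 passed. The remaining Igf2bp3 probe, with 6.84 at E14 and dark in adults, gave -0.02 against the adult floor. Lmnb1, lamin B1, had 12.84 at E14, against 8.16 and 8.12 in adults, 26.0-fold higher, while Lmna, lamin A, was not called at -0.43. Hmgb2, a chromatin protein of dividing cells, was 12.8-fold higher, and Sox11, a fetal transcription factor, at least 19.1-fold higher.

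Developmental signals were more often higher than lower. Of 52 listed, 38 were measured, 18 higher and 3 lower, with a median of 0.86, and 10 were dark in adults. Ptn, pleiotrophin, had 13.41 at E14, against 7.56 and 7.30 in adults, 63.0-fold higher. Its relative midkine (Mdk) had 14.10 at E14, against 8.29 and 8.25 in adults, 56.6-fold higher, with 3 of 4 probes past 2-fold. The remaining Mdk probe, with 6.77 at E14 and dark in adults, gave -0.09 against the adult floor. Among ligands and antagonists, Bmp7 was at least 12.5-fold and the Wnt antagonist Sfrp2 at least 7.65-fold higher. Among receptors, Fzd2 of the Wnt pathway was at least 6.48-fold higher. Fgfr2 was 22.2-fold higher by its brighter probe, which was detected on 1 of the 2 adult arrays, and its other probe gave 0.46. The genes called lower were Fgf9, a ligand of the epicardium, which was at least 2.90-fold lower by its brighter probe and gave -1.09 by the other, Fgf12, an intracellular relative of the FGFs (2.05-fold, with a difference of -0.12 from the MCM hearts), and the chemokine Cxcl12 (2.22-fold). Another probe of Cxcl12 differed by 1.66 in the other direction.

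Of 45 transcription factors of the heart 36 were measured, 8 higher, 3 lower and 25 uncalled, with a median of 0.13. Of the 36, 4 were dark in adults and 3 at E14. The share called was close to the 27.4% of all measured genes. Tead2, a partner of the Hippo pathway in embryos, was 18.1-fold higher, and Hey2, which marks the compact wall of the ventricle, was 10.1-fold higher with both probes past 2-fold. Isl1, a factor of cardiac progenitors and of neurons, had 9.08 at E14, against 5.42 and 5.31 in adults, at least 4.68-fold higher. Tbx2, a repressor in valve-forming regions, was 3.73-fold higher with 1 of 2 adult arrays detecting it, and Foxc1, a forkhead factor of the developing outflow tract, 3.48-fold higher. On the lower side were Klf9 (17.5-fold), a target of glucocorticoid and thyroid hormone, Pparg (at least 7.68-fold), the receptor of fat cells, and Smyd1 (3.68-fold), a muscle methyltransferase. Mef2c, which drives muscle genes from the early embryo on, had 11.61 at E14, against 11.55 and 11.46 in adults.

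The splicing regulators are of interest to the series because myotonic dystrophy disturbs the proteins that switch fetal to adult splicing. Mbnl1, which favours adult splice forms, had 11.80 at E14, against 12.97 and 13.03 in adults, 2.29-fold lower. Mbnl2 was just outside the threshold at -0.98 by its brighter probe, while its other probe gave -1.34. Celf1 and Celf2, which favour fetal forms, differed by 0.24 and -0.15 and were not called. The arrays measure mRNA and not protein. Rbfox1, a splicing factor of muscle and neurons, had 8.32 at E14, against 12.13 and 12 in adults, 13.4-fold lower on the brighter of 2 probes, and Dmpk, the gene that carries the repeat, was 4.79-fold lower. Ptbp1, which represses muscle and neuronal exons, had 12.33 at E14, against 10.20 and 10.17 in adults, 4.42-fold higher, with 8 of 10 probes past 2-fold. Esrp1, a splicing factor of epithelia, was dark in adults and at least 4.21-fold higher. In all 31 of 39 listed regulators were measured, 9 higher and 4 lower, with a median of 0.67, and 5 were dark in adults. Of 14 measured microRNA pathway genes Ddx17 was higher (2.45-fold), and Ago4 and Tnrc6b were lower. The share called was below the 27.4% of all measured genes. Tnrc6b was called by its brightest probe at -1.33, and its other probes lay between -0.46 and 0.19. Drosha and Dicer1 were uncalled at 0.47 and 0.76.

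Genes of cushions and embryonic matrix were higher or uncalled. Of 32 listed genes of cushions and embryonic matrix 26 were measured, 14 higher and none lower, with a median of 1.58, and 9 were dark in adults. Eln, elastin, had 13.83 at E14, against 8.62 and 8.61 in adults, 37.2-fold higher, while its dim second probe gave 0.60. Mfap2 and Mfap4, proteins of elastic fibres, were 23.6-fold and 12.1-fold higher, and Col2a1, the collagen of cartilage and valve primordia, at least 7.76-fold higher with all 3 probes past 2-fold. Tnc, tenascin C, was at least 9-fold higher by 2 of 3 probes, and Snai2, which drives cells out of an epithelium, 6.95-fold higher.

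Of 42 collagens and adult matrix genes 38 were measured, 10 higher and 11 lower, with a median of 0.16. Of the 38, 4 were dark in adults and 2 at E14. Col18a1, the collagen of basement membranes that yields endostatin, was 18.7-fold higher with both probes past 2-fold, Fn1, fibronectin, 11.9-fold and Lox, which crosslinks collagen and elastin, 11.5-fold higher. The fibrillar collagens Col1a1, Col1a2 and Col3a1 were 5.49-fold, 4.06-fold and 3.81-fold higher, Col1a2 with 1 of 2 adult arrays detecting it. Lower were the laminins Lamb2 (6.65-fold) and Lama2 (3.65-fold) of adult muscle basement membrane, Col8a1 (4.98-fold), and Timp4, the protease inhibitor of adult heart, which was dark at E14 and at least 4.61-fold lower.

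Among blood genes the embryonic globins were higher. The adult globins and red cell proteins had no common direction, with 3 higher and 3 lower of 13 measured. The 3 embryonic globins were dark in adults. Hbb-y had 16.06 at E14, against 5.11 and 5.01 in adults, at least 588-fold higher, the largest bound of all measured genes, with a second probe at 9.13. Hba-x, the embryonic alpha chain, had 14.31 at E14, against 4.97 and 5.16 in adults, at least 175-fold higher, and Hbb-bh1 was at least 13.9-fold higher. Globin genes have near-identical copies, so signals of the adult chains cannot be assigned to 1 gene. Hba-a1 was near the top of the range at 15.48 at E14, against 16.05 and 15.99 in adults. Hbb-b2 was 2.21-fold higher against the wildtype adults but differed by 3.22 from the MCM hearts. The median of the whole globin and erythroid list was 0.27 against wildtype adults and 1.17 against the MCM hearts. Slc4a1, the anion exchanger of red cells, was 13.8-fold higher, Slc25a37, which carries iron into mitochondria, 4.00-fold higher, and Tfrc, the transferrin receptor, 3.54-fold lower with both probes past 2-fold. Of 28 listed globin and erythroid genes 16 were measured, 6 higher and 3 lower, and 5 were dark in adults. Their log2 summed signal was 18.15 at E14, against 17.71 and 17.70 in adults.

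**Figure D4:**
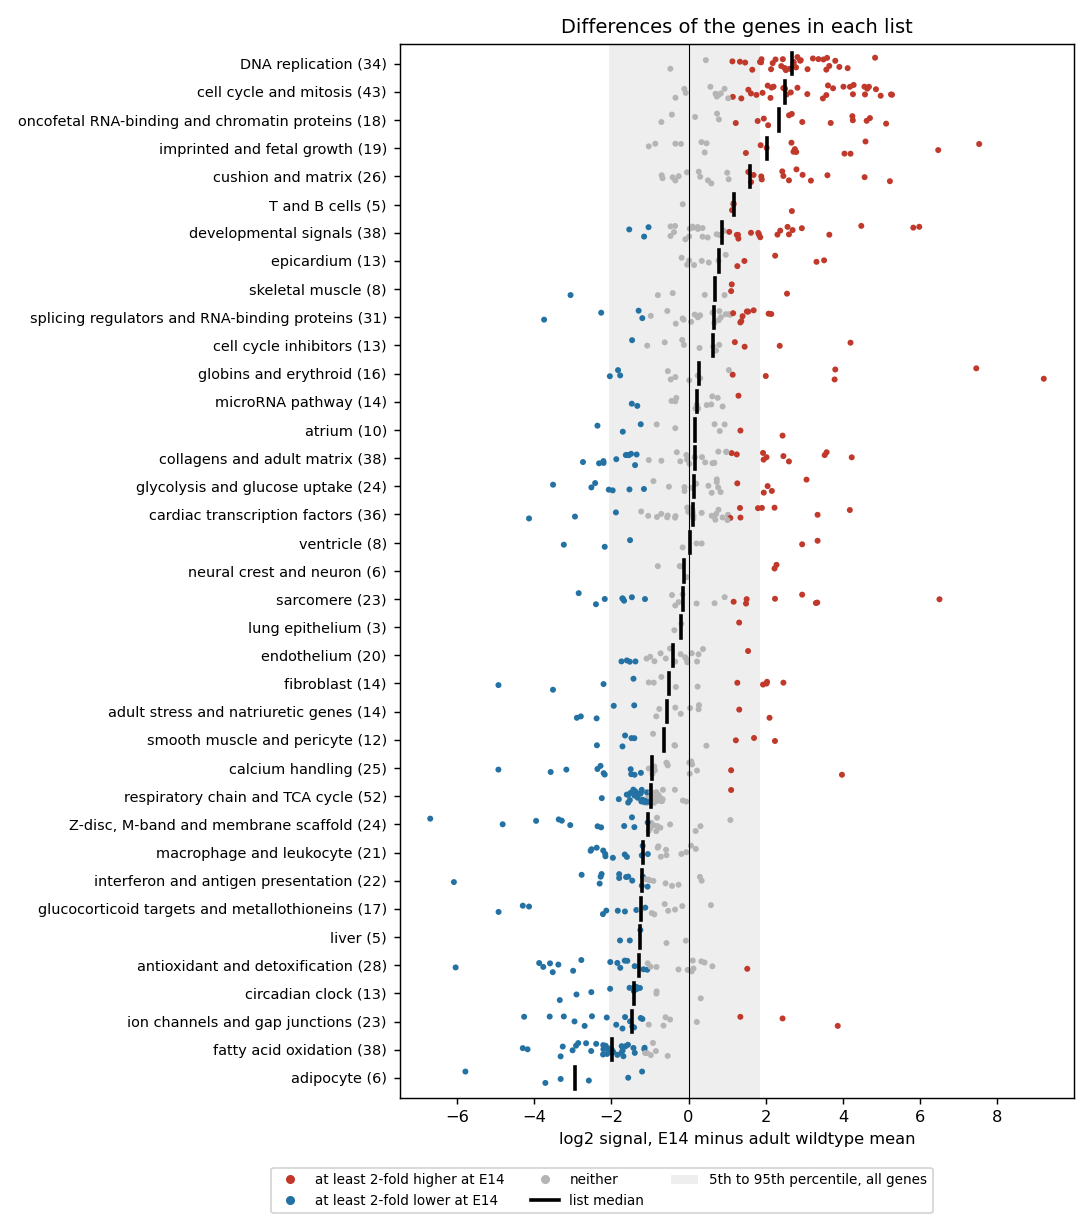
Log2 difference, E14 minus adult wildtype mean, of every measured gene (points) in each list, with the number measured in brackets, lists ordered by their median (black bar), and the 5th to 95th percentile of all genes shaded. Red and blue points are genes called higher and lower; DNA replication has the highest median at 2.67, adipocyte markers the lowest at -2.95 and fatty acid oxidation the next at -1.99 (2.66, -1.48 and -1.90 against the MCM hearts, which are not drawn), and dark groups enter at their floor.

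Markers of the heart's other cell types were counted beside these lists, and their part in the results was not tested. Of 23 endothelial markers 20 were measured, 1 higher and 4 lower, with a median of -0.41. The share called was close to the 27.4% of all measured genes. Their log2 summed signals were 15.03 at E14, against 15.47 and 15.52 in adults. Cdh5 and Tek, which define endothelium, differed by 0.38 and 0.08 and were not called. Aqp1, a water channel of capillaries, was 3.33-fold lower with all 3 probes past 2-fold, Vwf 3.02-fold lower, and Plvap, of fenestrated and fetal vessels, 2.91-fold higher.

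Of 16 fibroblast markers 14 were measured, 5 higher and 4 lower, with log2 summed signals of 15.34 at E14, against 15.47 and 15.54 in adults. Pdgfra was uncalled at 0.24, the collagens and Vim (4.10-fold) were higher, and Pi16 (at least 11.4-fold) and Dpt (4.59-fold), markers of adult fibroblasts, were lower. Smooth muscle and pericyte markers, 12 measured of 14, were 3 higher and 5 lower, with a median of -0.64. Their summed signals were 16 at E14, against 15.40 on both adult arrays. Acta2, with 15.63 at E14, made up most of the E14 sum. Myh11, which defines mature smooth muscle, was not called at -0.92, and Rgs5, a pericyte gene, was 5.18-fold lower.

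Epicardial markers were 5 higher and none lower of 13 measured of 14, and 10 of the 13 were dark in adults, with log2 summed signals of 12.89 at E14, against 10.57 and 10.56 in adults. Upk3b had 11.18 at E14, against 7.61 and 7.72 in adults, 11.4-fold higher with all 3 probes past 2-fold, and Krt8 was 9.95-fold higher. Tcf21, shared by epicardium and fibroblasts, was 2.40-fold higher. Of the 13 epicardial markers 8 were uncalled, and the list median was 0.78. Among the uncalled, Aldh1a2 gave 0.02, Msln 0.14 and Lrp2 -0.18, each against the adult floor. Atrial markers, 10 measured of 13, were 2 higher and 3 lower, with a median of 0.17. The higher ones were Gja5 at 2.44 and Nr2f2 at 1.34. The dim second probe of Nr2f2 gave -0.31 against the adult floor. Nppa, atrial natriuretic peptide, had 15.56 at E14, against 15.86 and 15.94 in adults, all near the top of the range. Sln, the atrial pump regulator sarcolipin, was 5.13-fold lower against wildtype adults and differed by -0.96 from the MCM hearts. Ventricular markers, 8 measured of 9, were 2 higher and 3 lower, with a median of 0.03. The part of chamber content in the isoform results was not tested.

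Markers of tissues outside the heart were mostly not measured. Of 14 liver markers 5 were measured, none higher, with 3 dark at E14 and 1 in adults. Their log2 summed signals were 9.09 at E14, against 10.41 and 10.42 in adults. Of 10 lung epithelium markers 3 were measured, 2 of them dark in adults. Only Nkx2-1 was higher, with 8.17 at E14, against 5.32 and 5.27 in adults. Of 18 markers of neural crest and neurons 6 were measured, 4 of them dark in adults, with Isl1 and Gap43 (at least 4.85-fold) higher. Of 15 T and B cell markers 5 were measured, 4 of them dark in adults, and 4 were higher. Cd3g had 9.53 at E14, against 5.33 and 5.46 in adults, at least 6.39-fold higher. Both Cd3d and Cd3e were at least 2.24-fold higher. The summed signal of the T and B cell list was 12.37 at E14, against 10.84 and 11.04 in adults. Most of it came from Cd8b1, which had 11.94 at E14, against 10.70 and 10.92 in adults. Of 19 skeletal muscle markers 8 were measured, 4 of them dark in adults, with 3 higher and 1 lower. Tnni2, the fast troponin I, was 5.86-fold higher against wildtype adults but differed by 0.78 from MCM hearts. The part of such tissue in the other results was not tested.

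Macrophage and leukocyte markers were lower or uncalled. Of 26 listed 21 were measured, 12 lower and none higher, with a median of -1.19, 4 dark at E14, and log2 summed signals of 13.14 at E14, against 14.68 and 14.65 in adults. Lyz2, lysozyme, had 9.25 at E14, against 11.68 and 11.84 in adults, 5.70-fold lower with both probes past 2-fold. The complement genes C1qb and C1qc, made by resident macrophages, were 4.46-fold and 4.44-fold lower, while Cx3cr1, Coro1a and Laptm5 were uncalled at 0.19, 0.07 and -0.18. Interferon and antigen presentation genes, 22 measured of 31, were 13 lower and none higher, with a median of -1.19 and 3 dark at E14. Ly6c1, a surface protein of adult endothelium and monocytes, had 6.20 at E14, against 12.44 and 12.48 in adults, at least 67.5-fold lower. H2-D1, a class I antigen, was 4.76-fold lower with all 3 probes past 2-fold, and Tap2, which loads it with peptides, 6.81-fold lower. The share of these results that goes with the lower leukocyte signal was not tested.

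Hormone and clock genes were also lower or uncalled. Of 19 clock genes 13 were measured, 10 lower and none higher, with a median of -1.41. Dbp, an output gene of the clock, had 9.32 at E14, against 12.64 and 12.67 in adults, 10.1-fold lower, Nr1d1 was at least 7.47-fold lower and Nr1d2 5.72-fold lower. Clock genes vary over the day and the labels give no hour of collection. The adult set mattered for Arntl, which differed by -0.82 from wildtype adults and by 0.55 from MCM hearts, and for Per2, with 0.32 and -1.02. Of 20 glucocorticoid targets and metallothioneins 17 were measured, 9 lower and none higher, with a median of -1.23 and 4 dark at E14. Hsd11b1, which activates glucocorticoid inside cells, was dark at E14 and at least 30.2-fold lower, with 3 probes between -4.92 and -4.62. Fkbp5, another classical target, was not called at 0.58.

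Antioxidant and detoxification genes were lower in 16 and higher in 1 of 28 measured of 33 listed, with a median of -1.28. Ces1d, a carboxylesterase that hydrolyses lipids, had 6.91 at E14, against 12.96 and 12.92 in adults, 65.4-fold lower. The glutathione transferases Gstk1 and Gstm1 were 14.6-fold and 13.6-fold lower, Ephx2, an epoxide hydrolase, 12-fold lower, and Nqo1, a quinone reductase, 11.4-fold lower. Gpx1, a glutathione peroxidase, was 2.87-fold higher. Of 14 measured stress and natriuretic genes 5 were lower and 2 higher. Nppb, brain natriuretic peptide, had 12.73 at E14, against 14.76 and 14.57 in adults, 3.83-fold lower, while the MCM hearts gave 13.43, 13.50 and 13.50 and a difference of -0.75. Ace, which makes angiotensin II, was at least 7.42-fold lower, and Chrm2, the muscarinic receptor of the heart, 6.91-fold lower with both probes past 2-fold. Chrm2 differed from the MCM hearts by -1.23.

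The sex of the hearts could not be matched. Xist, made from the inactive X chromosome of females, had 11.23 at E14, against 4.91 and 4.94 in adults, at least 20.7-fold higher with 3 of 4 probes past 2-fold. The Y-linked Kdm5d had 7.41 at E14, against 7.72 and 7.63 in adults, and Uty had 7.02 at E14, against 7.46 and 7.91. In the MCM hearts Xist was detected on 2 of 3 arrays, with 10.89, 11.36 and 4.96, so E14 lay within their range. Stage and sex cannot be told apart for genes that differ between the sexes.

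By size alone, the higher genes detected in all hearts were led by Mest, Ptn, Mdk, the histone H2ac22 and Gpc3, and the lower ones by Ckmt2, Lrtm1, Ankrd23, Ces1d and Trim54. Lrtm1, a membrane protein, was 92.0-fold lower with probes at -6.52 and -5.48. Ankrd23, a stretch-responsive titin partner, had 6.91 at E14, against 13.10 and 13.20 in adults, 75.8-fold lower. Cavin4, of muscle caveolae, and Trim54, of the sarcomere and microtubules, were 40.1-fold and 40.6-fold lower. Trim72, which repairs muscle membranes, was 26.2-fold lower, and Cp, ceruloplasmin, which oxidises iron, 26.0-fold lower. Among higher genes with the adults dark were also Capn6, a calpain without protease activity made in embryonic muscle, at least 37.7-fold, and Bex4, at least 46.0-fold with 2 of 3 probes past 2-fold. Marcksl1, an actin-binding protein of fetal tissues, was 24.5-fold higher with all 4 probes past 2-fold.

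The MCM hearts served as a check on the adults, although both comparisons share the E14 array. Of the 1280 higher genes 1076 were also at least 2-fold above each MCM array on the same probe, and of the 1422 lower genes 1134 were at least 2-fold below each. The sign against the MCM mean was turned for 2 of the higher and 7 of the lower genes, for 0 of them by 2-fold or more. Some of the named differences moved by over 1.5 times with the adult set. Smaller against the MCM hearts were Mdk at 5.23, Ankrd23 at -5.55, Cavin4 at -4.73 and Col8a1 at -1.60. Larger were Mest at 7.70, H2ac22 at 6.42, Lmnb1 at 5.64, Mcm5 at 4.44, Hmgb2 at 4.3, Lox at 4.34 and Upk3b at 4.34. Larger too were Slc4a1 at 4.66, Slc25a37 at 2.99, Slc2a3 at 2.93, Dbp at -4.31, Timp4 at -3.49 and Dmpk at -2.91.

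A few genes had probes that disagreed by at least 2-fold in each direction, 14 in all. Gsn, gelsolin, which severs actin filaments, had 1 probe with 5.53 at E14, against 11.34 and 11.27 in adults, a difference bounded at -4.92, and another at 2.33. For Myh8, the perinatal skeletal myosin, 3 probes spanned -3.06 to 2.35, for H2ac20, a histone, 2 probes gave -1.89 and 4.35, for Nol3, an inhibitor of cell death, 6 probes spanned -2.53 to 1.95, and for Rbbp4, a chromatin subunit, 3 spanned -3 to 1.35. Asph had 9 kept probes. The brightest was dark at E14 with 6.14, against 11.26 and 11.35 in adults, at least 30.3-fold lower, while the other 8 lay between -0.95 and -0.06. The gene makes both an enzyme and the short muscle proteins junctin and junctate from different exons, and the files do not say which of them each probe reads.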

How the data were processed

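RNA from 1 E14 heart sample, 2 adult wildtype hearts and 9 other adult hearts of the series was measured on Illumina bead arrays. Per the file headers, each deposited array file gives a mean bead signal intensity per probe, the bead SD and number, and a detection score. No file value was normalized or background-subtracted. A second deposited table of intensity values was mapped by the authors onto a master array by quantiles, per the deposited program, and served as an alternative. All 45281 probes linked to the annotated probe IDs by matching the authors' mapping to the array signals within 0.001; of these, 34885 carry 1 gene symbol. The 18 probes with several symbols and the 10378 without any were assigned to no gene.

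Here signals were background-corrected with limma's nec function (offset 16, detection p taken as 1 minus the score), quantile normalized over 12 arrays and put on the log2 scale (limma 3.58.1, R 4.3.3). Probes were kept at a detection p below 0.01 on the E14 array or on both adult arrays. A gene was read through its brightest kept probe over the 3 arrays. A group dark on all its arrays was set, per array, at the higher of its own value and the lowest signal among detected probes. Those floors were 6.39 at E14, and 6.93 and 6.78 in adults, on the log2 scale. Raw signals above 50000 were treated as near the top of the range. With 1 E14 array a call is a fold of at least 2 against each adult array, with no test. The limma fit over all genes and 12 arrays had 7 residual degrees of freedom, used Benjamini-Hochberg adjustment and was an alternative. On data simulated for the E14 against adult comparison over 9857 genes, the fold rule recovered 91% of genes changed by 1.5 on the log2 scale and 100% of those changed by 3. It called 0.383% of unchanged genes. The simulated E14 array was given normal noise with the spread of the replicated groups, and no floor, probe choice or normalization shift. No spread of E14 hearts was known, so these shares are not error rates of the real calls. Precision is limited by how few arrays each group has.

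The genes named were the 15 largest differences each way among genes detected on all 3 arrays with every probe past 2-fold, the 10 largest bounds each way, all measured members of isoform pairs, up to 12 members at the ends of each gene list, 9 fixed genes, the fixed cell type markers and the 5 widest gaps between opposing probes. The members and lists were chosen with earlier results of these data known. Promoter and microRNA sequences and gene names came from RefSeq tables for GRCm38.p6.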

Additional observations from a re-analysis of the deposited data

How the results depend on the processing

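With 1 E14 array, no spread of E14 hearts was measured, and every alternative shares that array. Counts moved by more than 1.5 times with the threshold: at 1.5-fold 2284 genes were higher and 2343 lower, at 4-fold 382 and 473, and the limma fit at an adjusted p below 0.05 gave 3103 and 2692. Without one or the other adult array, 1441 to 1486 genes were higher and 1574 to 1588 lower. The other alternatives (background, scaling, detection filter, probe rule, MCM hearts as adults) stayed within 1.5 times of 1280 and 1422. Of 275 called genes named, 3 turned under at least 1 alternative. Nol3 gave -1.79 without background correction, -1.74 in the authors' table, -0.49 as the mean of its probes and -2.48 against MCM hearts, Rbbp4 gave -0.59 and Cxcl12 0.05 as the mean of their probes. Without a filter on detection, genes dark in both groups enter at floors that are lower at E14 (6.39) than in adults (6.93 and 6.78). The median of all genes was then -0.47, that of imprinted genes -0.19 and that of T and B cell markers -0.47. The cause of the turns in Nol3, Rbbp4 and Cxcl12 was not tested. Under at least 1 alternative the medians of the sarcomere, glycolysis, globin, atrium, ventricle, fibroblast, lung, neural, skeletal muscle and sex chromosome lists also changed sign. No paired analysis was possible because the E14 group is 1 array with no replicate number to pair. Probes below the detection floor give bounds only, so a low E14 signal limits the largest folds on the lower side.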

Other observations

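Histone genes differed by family. The families were chosen after their values were seen, and histone genes have near-identical copies, so signals cannot be assigned to 1 gene with certainty. Of 13 measured H2A genes 10 were higher and 2 lower, with a median difference of 4.35 on the log2 scale against the wildtype adults and 4.47 against the MCM hearts. H2ac22 had a log2 signal of 13.81 at E14, against 8.19 and 8.46 in adults. Of 8 measured H3 genes 6 were higher and none lower, with a median of 1.31. H2B and H4 went the other way: of 9 measured H2B genes 8 were lower and none higher, with a median of -1.55, and of 10 measured H4 genes 6 were lower and none higher, with a median of -2.22. H2bc4 had 9.92 at E14, against 11.91 and 11.99 in adults, and H4c8 had 7.93 at E14, against 12.09 and 12.06 in adults.

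Of 2591 kept probes without a gene symbol 334 were at least 2-fold higher at E14 than on each adult array and 303 at least 2-fold lower, shares close to the 13% and 14.4% of all measured genes.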
